A study of Homo sapiens with 6 samples.

Results

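BAF complexes (also called SWI/SNF) are ATP-driven machines that slide or evict nucleosomes and so open chromatin at promoters and enhancers. They are built from interchangeable subunits, and in mouse the complex of dividing neural progenitors differs from that of neurons. When progenitors leave the cell cycle there, the actin-related subunit ACTL6A gives way to its paralogue ACTL6B, the PHD finger subunit PHF10 gives way to relatives, and SS18 gives way to SS18L1 (also called CREST). A related assembly, PBAF, is marked by PBRM1 and BRD7 and can carry PHF10, whereas ARID1A and ARID1B are alternative DNA-binding subunits of BAF itself. The transcript levels of 10 such subunits were examined, chosen by gene symbol: ACTL6A, PHF10 and SS18 of progenitors, ACTL6B and SS18L1 of neurons, and BCL7A, ARID1A, ARID1B, PBRM1 and BRD7. Of these, 9 had a transcript cluster, a group of probes read as 1 value, among 53617 clusters and 14884 named genes. No gene symbol was given for 37519 of the clusters, and some genes had more than 1 cluster. SS18 was not analysed here, because no cluster carried its symbol in the annotation used.

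RNA came from D283 tumorspheres. D283 is a long-established human line from medulloblastoma, a childhood tumour of the cerebellum, and its spheres grew unattached in a neural medium with EGF and bFGF. In the knockdown group (OTX2 KD, n = 3 arrays) the homeobox factor OTX2 was silenced with the siRNA s9931. In the control group (scramble, n = 3 arrays) the spheres received a non-silencing siRNA. Per the study's methods, arrays of a group are biological replicates, but all are of 1 cell line. With 1 OTX2 siRNA its effects on other transcripts cannot be told apart from those of OTX2. OTX2 itself had log2 values of 9.58 ± 0.0294 in the OTX2 KD arrays and 10.56 ± 0.00725 in the scramble arrays (SD, n = 3 each), 1.96-fold lower (adjusted p = 8.7e-05).

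All values are RMA values on a log2 scale, so that 1 unit is a 2-fold difference. They compare the same cluster between arrays and do not rank different genes by abundance. Differences are OTX2 KD minus scramble, tested with limma across all clusters, and a gene is called higher or lower at a Benjamini-Hochberg adjusted p below 0.05. The comparison was broad. Of all clusters 27.9% were called, 14.8% higher and 13.1% lower. Of named genes, each taken at its brightest cluster, 39.8% were called, 16.6% higher and 23.2% lower. Among named genes above the median of every array the share was 52.5%, and all 9 BAF subunits belonged to that class. Of all clusters, 7932 were called higher and 7034 lower, and after centring each array on its median the split was 6027 and 8611.

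To show the DNA at the start of the switch subunits that moved, promoter windows of 3 of the 4 are printed, ACTL6A having no entry in the table used, from 250 bases before to 50 bases after the transcript start (RefSeq, GRCh38.p14, each 5′ to 3′ on the gene's strand). They are the neuronal subunits ACTL6B (chr7:100656399-100656698, minus strand) and SS18L1 (chr20:62143519-62143818, plus strand) and the progenitor subunit PHF10 (chr6:169724451-169724750, minus strand). Capitals mark an E box, CAGCTG, the kind of site that proneural basic helix-loop-helix factors bind, and GC boxes, GGGCGG, which Sp1 binds, on either strand.
ACTL6B: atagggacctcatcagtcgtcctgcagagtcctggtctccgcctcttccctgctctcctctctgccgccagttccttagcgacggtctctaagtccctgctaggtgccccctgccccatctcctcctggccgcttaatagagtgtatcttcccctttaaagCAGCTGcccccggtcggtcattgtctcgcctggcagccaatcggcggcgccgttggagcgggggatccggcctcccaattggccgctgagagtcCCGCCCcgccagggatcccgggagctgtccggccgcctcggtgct
SS18L1: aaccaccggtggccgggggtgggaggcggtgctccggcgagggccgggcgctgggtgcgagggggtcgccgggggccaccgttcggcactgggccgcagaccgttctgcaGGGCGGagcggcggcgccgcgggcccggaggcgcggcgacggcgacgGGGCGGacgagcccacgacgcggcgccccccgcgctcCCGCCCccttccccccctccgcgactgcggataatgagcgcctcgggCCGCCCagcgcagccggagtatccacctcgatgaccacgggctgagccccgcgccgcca
PHF10: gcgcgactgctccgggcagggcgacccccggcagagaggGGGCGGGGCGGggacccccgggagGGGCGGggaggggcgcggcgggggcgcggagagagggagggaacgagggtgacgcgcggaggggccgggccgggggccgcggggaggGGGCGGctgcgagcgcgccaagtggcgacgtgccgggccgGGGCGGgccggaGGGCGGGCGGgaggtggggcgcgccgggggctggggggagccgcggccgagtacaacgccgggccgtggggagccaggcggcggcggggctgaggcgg

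The 3 windows differ in composition. ACTL6B held 22 CG dinucleotides, 1 E box and 1 GC box, SS18L1 held 49 CG dinucleotides and 4 GC boxes, and PHF10 held 47 CG dinucleotides and 7 GC boxes, overlapping copies counted. The median over all 35116 windows was 14 CG dinucleotides. The OTX2 core site TAATCC and its variant TAATCT, searched on both strands, were in 0 of the 10 windows of the 8 subunits with an entry, against 6.36% and 7.17% of all windows. With so few windows at such shares, 0 matches cannot show that the sites are rarer in these genes. CAGCTG was in 4 of the 10 windows (of ACTL6B, BCL7A, ARID1A and PBRM1) and in 17.9% of all windows. GGGCGG was in 9 of the 10, with a window of each of the 8 subunits among them, and in 45.0% of all windows. These 9 windows held 22 to 49 CG dinucleotides and the other held 5, and the 45.0% was not matched for this. The GC box did not overlap the other motifs in the printed windows. These matches are letters in a short window and were not tested as binding sites.

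The progenitor subunits fell and the neuronal subunits rose. ACTL6A, an actin-related protein at the base of the remodelling motor, was at 6.73, 6.65 and 6.65 in OTX2 KD, against 7.29, 7.41 and 7.60 in scramble. Every OTX2 KD array lay below every scramble array, with more spread among the controls. The OTX2 KD mean was 6.67 ± 0.0485 and the scramble mean 7.43 ± 0.156 (SD, n = 3 each), a log2 change of -0.76 ± 0.101 (SE), or 1.69-fold lower (adjusted p = 0.00124). ACTL6A is not private to BAF, since the INO80, SRCAP and TIP60 complexes also contain it. In bulk RNA, fewer cells of a type and less RNA per cell cannot be told apart.

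PHF10, which reads histone tails through its PHD fingers, had the strongest fall of the subunits. It was at 7.05, 6.94 and 7.09 in OTX2 KD, against 8.14, 8.14 and 8.12 in scramble. The groups were far apart, and the controls were nearly identical. The log2 change was -1.11 ± 0.0800 (SE), or 2.16-fold lower (adjusted p = 7.01e-05). Of named genes, 5.54% had a lower log2 change than PHF10 and 10.6% a lower one than ACTL6A.

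ACTL6B, the neuron-restricted paralogue of ACTL6A that mouse neurons need for dendrite growth, had the strongest rise. It was at 6.95, 6.93 and 6.87 in OTX2 KD, against 5.66, 5.84 and 5.76 in scramble. All OTX2 KD arrays lay more than 1 log2 unit above all scramble arrays. The log2 change was 1.16 ± 0.0840 (SE), or 2.24-fold higher (adjusted p = 7.13e-05), and 2.74% of named genes had a higher log2 change.

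SS18L1, a coactivator needed for calcium-dependent dendrite growth in mouse neurons, also rose. Its values were 6.79, 6.64 and 6.69 in OTX2 KD, against 6.08, 6.12 and 6.11 in scramble. The groups did not overlap, and the rise was smaller than that of ACTL6B. The log2 change was 0.60 ± 0.0795 (SE), or 1.52-fold higher (adjusted p = 0.00116), and 8.43% of named genes had a higher log2 change.

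**Figure D1:**
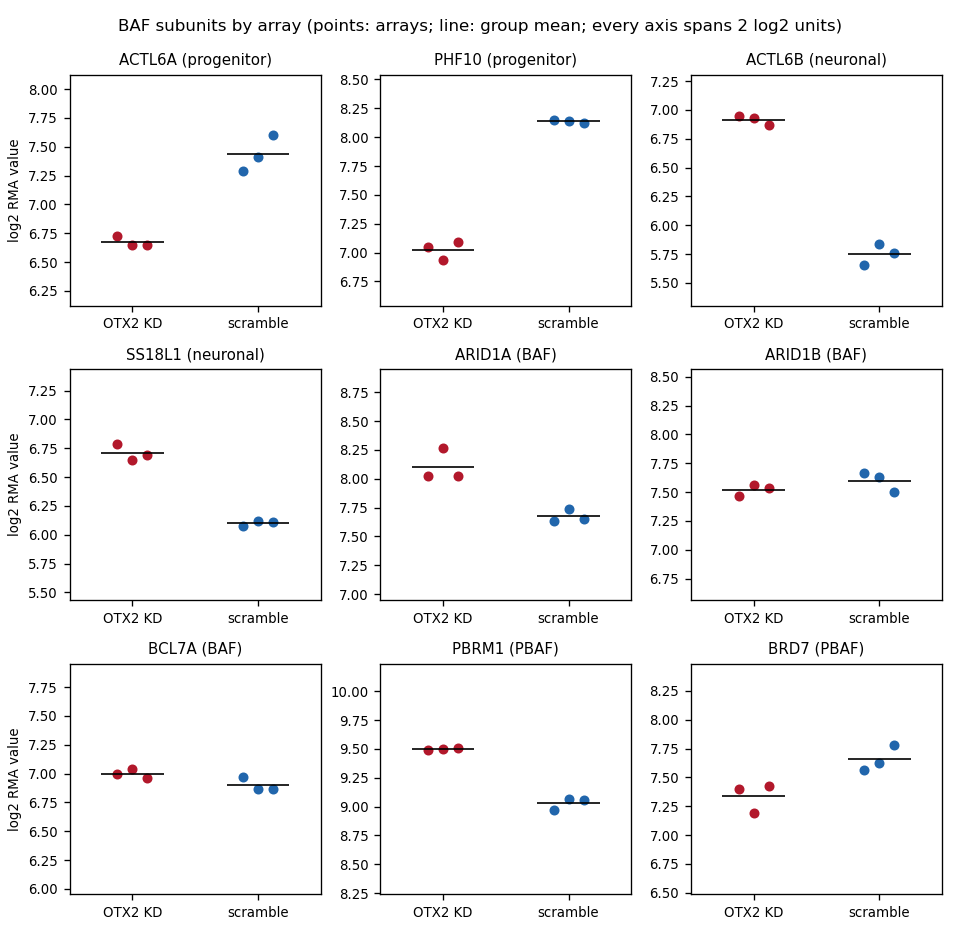
Log2 RMA values (vertical axes, each spanning 2 log2 units) of the 9 measured BAF subunits on the 3 OTX2 KD arrays (red, left) and the 3 scramble arrays (blue, right), with a line at each group mean. ACTL6A and PHF10 lay lower and ACTL6B and SS18L1 higher on all 3 OTX2 KD arrays than on all 3 scramble arrays, while the groups overlapped for ARID1B and BCL7A; heights cannot be compared between panels.

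The contrast between paralogues was also taken within each array, which removes a shift shared by the whole array. The value of ACTL6B minus that of ACTL6A was 0.22, 0.28 and 0.22 in OTX2 KD, against -1.63, -1.57 and -1.84 in scramble. The difference between the groups was 1.92 log2 units, a 3.79-fold change in the ratio of ACTL6B to ACTL6A signal. The sign of each value has no meaning of its own, because the probes of the 2 genes differ, and only the change between groups can be read. An exact two-sided permutation test over arrays gave p = 0.1, the smallest that 3 against 3 arrays allow. Over the 3 paralogue pairs tested this way, the Benjamini-Hochberg adjusted p was also 0.1.

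With all 4 measured subunits of the switch, the mean of ACTL6B and SS18L1 minus the mean of ACTL6A and PHF10 was -0.02, -0.01 and -0.09 in OTX2 KD. In scramble it was -1.85, -1.79 and -1.93. The groups were 1.82 log2 units apart, and the spread within a group was an SD of 0.0424 for the OTX2 KD arrays and 0.0657 for the scramble arrays (n = 3 each). This summary is a description without a test, and SS18 is missing from its progenitor side. The relatives that take the place of PHF10 were not analysed here and are missing from its neuronal side.

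**Figure D2:**
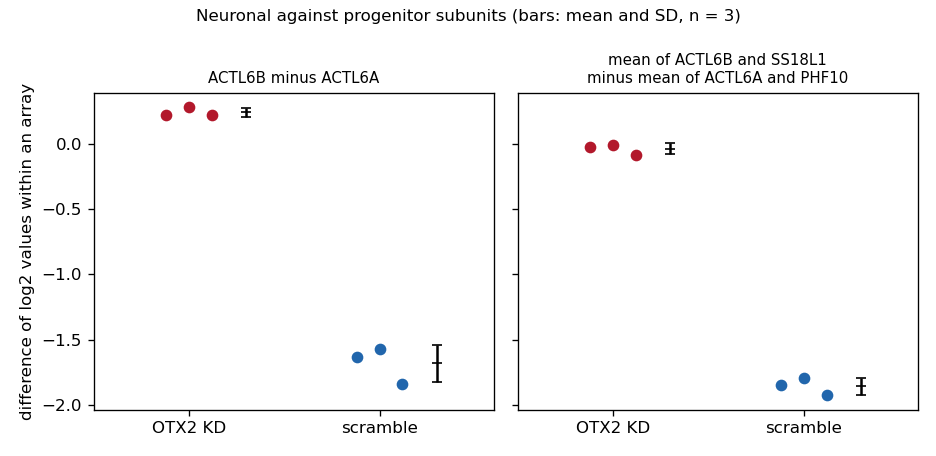
Differences of log2 values within an array (vertical axis) for ACTL6B minus ACTL6A (left panel) and for the mean of ACTL6B and SS18L1 minus the mean of ACTL6A and PHF10 (right panel), with OTX2 KD arrays in red and scramble arrays in blue; bars are the mean and SD of 3 arrays. The groups lay 1.92 and 1.82 log2 units apart, with no overlap.

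Of the 5 subunits that belong to no side of this switch, ARID1A and PBRM1 rose, and ARID1B, BCL7A and BRD7 did not pass the test. ARID1A, a large DNA-binding subunit of BAF that is often mutated in cancer, was at 8.02, 8.27 and 8.03 in OTX2 KD, against 7.63, 7.74 and 7.66 in scramble. The groups did not overlap, and the second OTX2 KD array was the highest. The log2 change was 0.43 ± 0.0972 (SE), or 1.35-fold higher (adjusted p = 0.0143).

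ARID1B, its alternative in the complex, was at 7.46, 7.57 and 7.54 in OTX2 KD, against 7.67, 7.63 and 7.50 in scramble. The groups overlapped, and the log2 change was -0.08, with a 95% interval of -0.28 to 0.12 (adjusted p = 0.554). Within arrays, ARID1A minus ARID1B was 0.51 log2 units higher in OTX2 KD (exact permutation p = 0.1, again the smallest possible).

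BCL7A, a small subunit found in BAF of many cell types, was at 7.00, 7.04 and 6.96 in OTX2 KD, against 6.97, 6.86 and 6.86 in scramble. The groups overlapped slightly, and the log2 change of 0.10 had a 95% interval of -0.08 to 0.29 (adjusted p = 0.406).

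Of the PBAF subunits, PBRM1, which binds acetylated histones through its bromodomains, rose. It was at 9.49, 9.50 and 9.51 in OTX2 KD, against 8.97, 9.06 and 9.06 in scramble. The OTX2 KD arrays were nearly identical and all lay above the controls. The log2 change was 0.47 ± 0.0762 (SE), or 1.38-fold higher (adjusted p = 0.00318).

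BRD7, a bromodomain partner of PBRM1, was at 7.40, 7.20 and 7.43 in OTX2 KD, against 7.57, 7.62 and 7.78 in scramble. Every OTX2 KD array was below every scramble array, but the log2 change of -0.31 ± 0.102 (SE) did not pass the test (adjusted p = 0.0600). This call depended on the setting, since the adjusted p was 0.0290 after median centring and 0.0208 with trend and robust variance. PBRM1 and PHF10, both of PBAF, moved in opposite directions.

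Counted together, 4 of the 9 subunits were called higher, 2 lower and 3 were not past the test, against 16.6% higher and 23.2% lower among named genes. Among named genes above every array median, the class of all 9, the shares were 21% higher and 31.5% lower. The groups did not overlap for 7 of the 9, and for 55.5% of named genes (42% of all clusters). ACTL6B and PHF10 were the 2 that changed at least 2-fold, against 10.7% of named genes and 6.74% of all clusters in either direction. The median log2 change of the 9 was 0.10, beside 0.00 over all named genes.

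**Figure D3:**
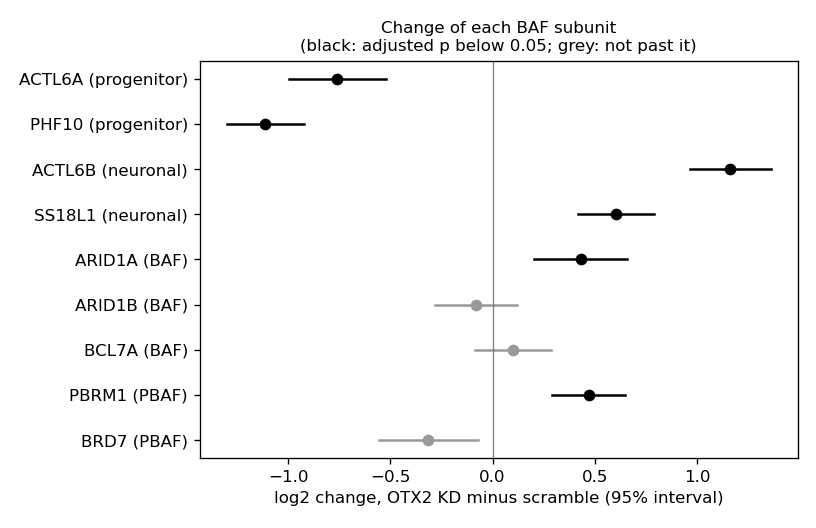
Log2 change, OTX2 KD minus scramble (horizontal axis), of the 9 BAF subunits ordered by role, with 95% intervals from limma; black marks an adjusted p below 0.05 and grey one above it. ACTL6A and PHF10 are left of 0, ACTL6B, SS18L1, ARID1A and PBRM1 right of it, and the intervals of ARID1B and BCL7A include 0. BRD7 is grey although its interval (-0.55 to -0.07) lies left of 0. The intervals are unadjusted, whereas the colour follows the adjusted p.

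Of 21 further BAF subunits listed, 6 had a named cluster, and the ATPases and core scaffold subunits were not analysed here. Of the 6, 3 were called higher and 0 lower, against 16.6% higher and 23.2% lower among named genes. All 6 lay above every array median, a class with shares of 21% higher and 31.5% lower. With an unadjusted p below 0.05 the number lower among the 6 was also 0. BCL11A, a zinc finger protein of developing neurons that copurifies with BAF, was at 7.85, 7.72 and 7.75 in OTX2 KD, against 5.19, 5.20 and 5.22 in scramble. It rose 5.93-fold (log2 change 2.57 ± 0.0785, SE, adjusted p = 3.65e-06), more than any of the 9 subunits above. Its paralogue BCL11B rose 1.80-fold (adjusted p = 0.000198).

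BICRA, which marks the non-canonical form of BAF, rose 1.57-fold (adjusted p = 0.000878), while its paralogue BICRAL had a log2 change of 0.18 (adjusted p = 0.202). Within arrays, BICRA minus BICRAL was 0.48 log2 units higher in OTX2 KD (exact permutation p = 0.1). BCL7B and BCL7C, the paralogues of BCL7A, had log2 changes of -0.12 and -0.22 and were not past the test.

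Because ACTL6A also sits in INO80, SRCAP and TIP60 complexes, the other subunits of these were listed, 30 of 32 with a cluster. Of the 30, 5 were called higher, 6 lower and 19 were not past the test, with a median log2 change of -0.03. Together the 11 called are no larger a share than the 39.8% of all named genes or the 52.5% of those above every array median, so the count of this list does not stand above the background. The largest falls were in RUVBL1 and RUVBL2, the paired AAA-type ATPases that assemble in all of these complexes. RUVBL1 was at 5.88, 5.69 and 6.01 in OTX2 KD, against 7.52, 7.37 and 7.42 in scramble, 2.98-fold lower (adjusted p = 5.23e-05). RUVBL2 was 2.17-fold lower (adjusted p = 0.00011).

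Both ATPases thus fell further than ACTL6A on the log2 scale, at -1.57 and -1.12 beside -0.76, differences between genes that were not tested. The largest rises of that list were in the TIP60 scaffold EPC1, 1.77-fold (adjusted p = 0.000355), and in INO80D, 1.57-fold at its brighter cluster (adjusted p = 0.00282). The other INO80D cluster had a log2 change of 0.25 (adjusted p = 0.367).

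Genes listed as ISWI and CHD remodellers mostly rose, with ATRX, of neither family, in the list (1.54-fold higher, adjusted p = 0.00111). Of ISWI only the partner subunits BPTF, RSF1 and CHRAC1 were measured, and its ATPases were not analysed here. Of 22 listed, 13 had a cluster, and 10 were called higher, 1 lower and 2 were not past the test, with a median log2 change of 0.48. Among named genes 16.6% were called higher and the median was 0.00. All 13 lay above every array median, a class of named genes in which 21% were called higher. The number higher was 8 after median centring, where CHD4 and RSF1 lost the call (adjusted p = 0.113 and 0.0890), and also 8 when each array in turn was left out. Of the 9 measured CHD genes, 7 were higher, and CHD1 (log2 change -0.12, adjusted p = 0.367) and CHD5 (0.25, adjusted p = 0.0751) were not past the test. CHD9 rose 2.01-fold (adjusted p = 0.000126) and CHD3, an ATPase of the NuRD complex, 1.82-fold (adjusted p = 0.000157). CHRAC1, a histone-fold partner of ISWI, was the 1 that fell, with a log2 change of -0.50 (adjusted p = 0.0140), and without scramble replicate 2 its adjusted p was 0.0531.

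**Figure D4:**
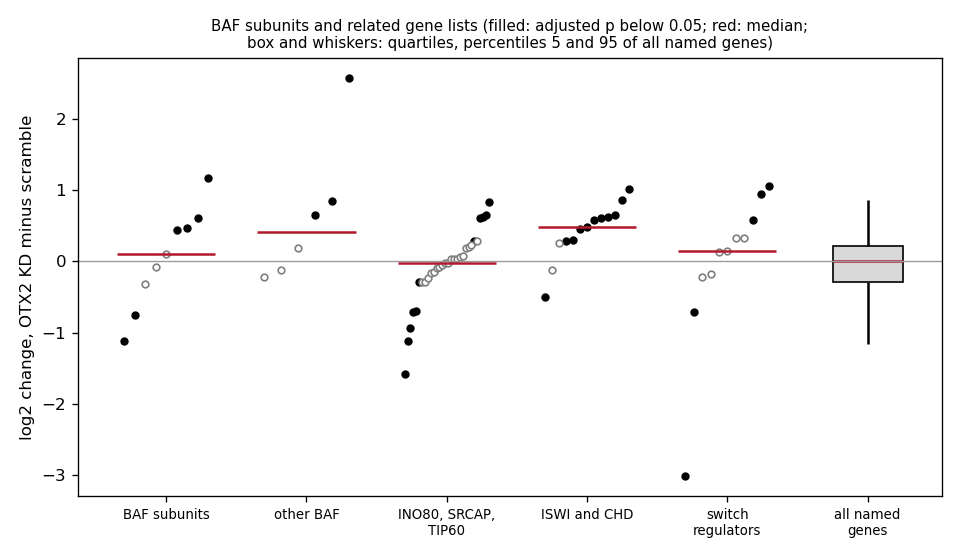
Log2 change, OTX2 KD minus scramble (vertical axis), of single genes in the BAF subunits and 4 related lists; filled points have an adjusted p below 0.05, open points do not, and red lines are medians. The box and whiskers show quartiles and the 5 and 95 percentiles (-1.16 and 0.85) of all named genes. BAF subunits spread from -1.11 to 1.16, genes of the ISWI and CHD list lie mostly above 0, and REST is lowest, at -3.02.

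Regulators tied to the subunit switch were listed last. In mouse progenitors and non-neuronal cells the repressor REST holds down the genes of the microRNAs miR-9 and miR-124. Neurons lose REST, and there these microRNAs are made and repress ACTL6A transcripts. REST was at 4.07, 3.64 and 4.07 in OTX2 KD, against 6.81, 6.98 and 7.04 in scramble. It fell by 3.02 on the log2 scale, or 8.09-fold lower (adjusted p = 1.12e-05). The OTX2 KD values lay near the array medians of 3.67 to 3.71, so the size of this fall is uncertain.

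Of the 11 measured entries of this list, 3 were called higher, 2 lower and 6 were not past the test, a share near the 39.8% called among all named genes. The MIR9-1 cluster, which covers a precursor of miR-9 and cannot separate its mature arms, was at 5.14, 5.50 and 5.29 in OTX2 KD, against 4.52, 4.29 and 4.30 in scramble. It rose 1.92-fold (adjusted p = 0.00106). MIR9-3 and the 3 MIR124 precursors were not past the test (adjusted p between 0.0950 and 0.757), and MIR9-3, MIR124-1 and MIR124-3 lay below the median of every array. MIR9-2HG, a host transcript of miR-9 on this list, was also not past the test (adjusted p = 0.0684).

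The mature products of MIR9-1 are printed from RefSeq (GRCh38.p14, chr1:156420392-156420414 and chr1:156420354-156420375, minus strand), because the 3p arm is the one reported to act on ACTL6A in mouse. Capitals mark the seed, bases 2 to 8 counted from the 5′ end, through which a microRNA pairs with its targets.
hsa-miR-9-5p: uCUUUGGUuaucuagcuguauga
hsa-miR-9-3p: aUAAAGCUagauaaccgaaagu

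The splicing repressor PTBP1 and its neuronal paralogue PTBP2 moved in opposite directions. PTBP1 was at 10.17, 10.19 and 10.23 in OTX2 KD, against 10.98, 10.88 and 10.85 in scramble, 1.63-fold lower (adjusted p = 0.000562). PTBP2 was at 8.56, 8.60 and 8.63 in OTX2 KD, against 7.46, 7.62 and 7.55 in scramble, 2.07-fold higher (adjusted p = 9.71e-05). Of the REST corepressors, chosen after their values were seen, RCOR2 rose by a log2 change of 0.58 (adjusted p = 0.00111) and RCOR1 had a log2 change of -0.22 (adjusted p = 0.121).

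**Figure D5:**
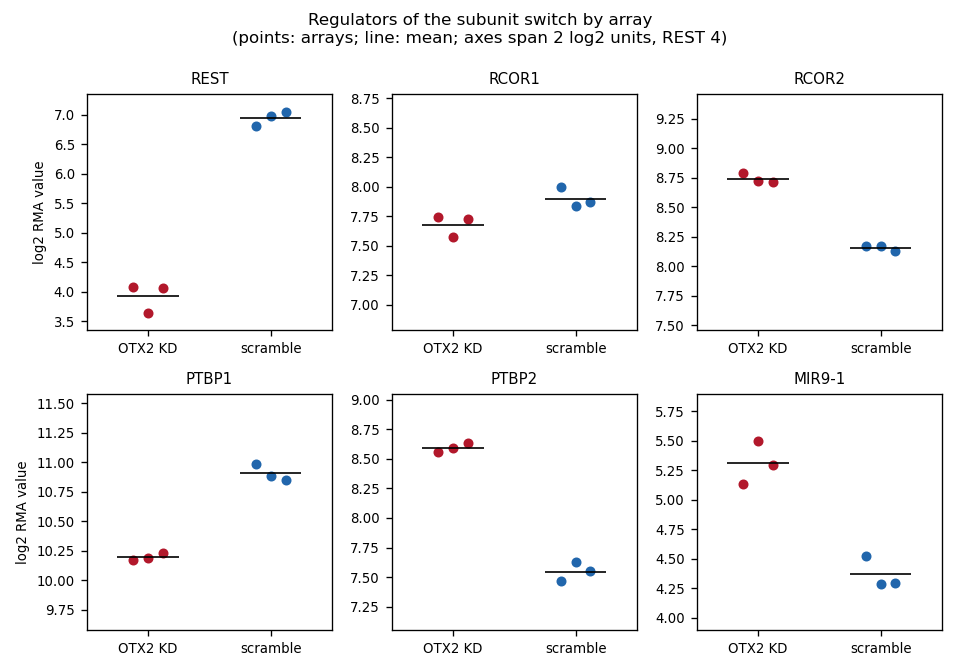
Log2 RMA values (vertical axes, spanning 2 log2 units, 4 for REST) of REST, its corepressors RCOR1 and RCOR2, the splicing factors PTBP1 and PTBP2 and the MIR9-1 precursor on the 3 OTX2 KD arrays (red, left) and the 3 scramble arrays (blue, right), with a line at each group mean. REST and PTBP1 lay lower and RCOR2, PTBP2 and MIR9-1 higher on all 3 OTX2 KD arrays.

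Markers of cell state moved in the same arrays. Of 6 markers of proliferating progenitors, 5 were called lower, beside 23.2% of named genes. The mean log2 level of the 6 per array was 6.03 to 6.28 in OTX2 KD and 7.71 to 7.73 in scramble. MKI67 and TOP2A, which mark cycling cells, were 4.92-fold and 5.04-fold lower, and SOX2 was below the median of every array. All 4 measured neuron markers were higher, beside 16.6% of named genes. Their mean log2 level per array was 8.83 to 8.90 in OTX2 KD and 6.36 to 6.44 in scramble. For SYP, 1 of the 4, the other cluster was not past the test (log2 change 0.26, adjusted p = 0.158). The part of cycling or of cell state in the subunit values was not tested. The 6 medulloblastoma markers were measured, of which NPR3, IMPG2 and OTX2, the siRNA's own target, were lower and EYA1 and LHX2 higher. Among named genes 23.2% were lower and 16.6% higher. EOMES was not past the test (log2 change -0.35, adjusted p = 0.0591). The other LHX2 cluster was not past the test (log2 change 0.15, adjusted p = 0.510).

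Of 12 measured markers of astrocytes, oligodendrocytes, leukocytes, endothelium and fibroblasts, 2 were called, both higher. Among named genes 39.8% were called, 16.6% higher. OLIG2, of the oligodendrocyte lineage, rose 1.72-fold, and the mean level of the 2 measured markers of that list was 4.54 to 4.77 in OTX2 KD and 4.25 to 4.37 in scramble. CD68, a lysosomal protein abundant in macrophages, rose 2.19-fold, and the mean level of the 3 measured leukocyte markers was 4.32 to 4.44 in OTX2 KD and 3.84 to 4.04 in scramble. AQP4, CD14, PECAM1, VWF, KDR, DCN and LUM lay below the median of every array, while the astrocyte marker GFAP lay above it on all 6 and did not pass the test (log2 change -0.04).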

How the data were processed

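Each array's column held log2 RMA values that the authors made in Affymetrix Expression Console. RMA corrects background, quantile-normalizes the arrays and summarises the probes of a transcript cluster. The array medians of the values used still differed by group, at 3.67 to 3.71 in OTX2 KD and 3.60 to 3.61 in scramble. RMA values can be compressed at low signal, so folds of dim genes are uncertain. Depth does not apply, and the number of arrays limits the precision. Groups came from sample titles. No batch or scan date is named in the sources used here.

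OTX2 KD was compared with scramble over all 53617 clusters with moderated two-sided tests in limma 3.58.1 (R 4.3.3), the package the study's methods name, and Benjamini-Hochberg adjustment. The prior df was 3.17 beside a residual df of 4. Gene symbols came from the platform annotation, with older list symbols matched through RefSeq synonyms, and a gene was represented by its brightest cluster; each subunit had 1. Sequences were read from RefSeq tables. The subunits and lists were chosen with earlier results of these data known. Named genes were OTX2, all measured subunits, any genes of lists of 10 or fewer, and the 2 largest called rises and falls of longer lists; others were chosen after their values were seen. The procedure was tested on simulated data. Alternatives were a replicate block, median centring, repeated quantile normalization, 2 restrictions of the clusters tested, trend and robust variance, averaging a gene's clusters, a 2-fold limit, and leaving out each array. Figures were drawn with matplotlib 3.10.9.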

Additional observations from a re-analysis of the deposited data

How the results depend on the processing

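Each of the 9 subunits kept its direction under all alternatives run, and 8 kept their side of the threshold. The exception was BRD7, called lower after median centring (log2 change -0.40, adjusted p = 0.0290) and, at an unchanged log2 change of -0.31, with the clusters at or above the median level (0.0265), with the clusters that had 1 gene symbol (0.0254) and with trend and robust variance (0.0208). Its adjusted p was 0.0600 to 0.0992 under the other alternatives that kept all arrays and 0.0729 to 0.167 without single arrays. With a 2-fold limit, 1 subunit was higher and 1 lower, and 1672 clusters were higher and 1941 lower. With only the clusters that had 1 symbol, 3240 were higher and 4127 lower, as fewer were tested, and 5 switch regulators were higher. With the brighter clusters only, 8 INO80, SRCAP and TIP60 partners were higher. Without single arrays, the genes of the ISWI and CHD list called lower numbered 0 to 1. Same-numbered arrays did not deviate together (correlations of -0.06, -0.02 and -0.000718), so the numbers were not taken as pairs. The replicate block gave 6774 clusters higher and 6206 lower, and 4 subunits higher and 2 lower. It gave 8 genes of the ISWI and CHD list higher and changed no call of a subunit. The difference of neuronal and progenitor subunits ranged from 1.78 to 1.85 without single arrays. RMA values carry no detection call, so what dim clusters can show was not assessed.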

Other observations

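Host transcripts of the microRNAs named above were looked at after their values were seen, and 4 of 5 had a cluster. One of them, MIR9-2HG, is also counted among the switch regulators above. On all 3 OTX2 KD arrays each of the 4 lay above all 3 scramble arrays, beside 55.5% of named genes whose groups did not overlap in either direction. MIR124-1HG was at 6.57, 6.28 and 6.49 in OTX2 KD, against 5.41, 5.76 and 6.01 in scramble, 1.65-fold higher (limma, adjusted p = 0.0136), and MIR124-2HG was 1.24-fold higher (adjusted p = 0.0412). MIR9-2HG and MIR9-3HG had log2 changes of 0.32 and 0.30 and were not past the test (adjusted p = 0.0684 and 0.0986).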
